A study of Caenorhabditis elegans with 25 samples.

Results

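The 52 genes described here encode the core histones H2A, H2B, H3 and H4 of *C. elegans* and lie in 13 clusters, each named after the cosmid that carries it. They were taken by identifier from a list of such clusters and make up 52 of the 45461 gene identifiers counted. The rule used no measured value, but the list was chosen with earlier results of these data known. By coding length, 13 encode H2A, 13 H2B, 13 H3 and 12 H4, and F45F2.2 (his-39) has a shorter reading frame than any of these. In RefSeq's annotation of the WBcel235 assembly, 13 of the genes lie on chromosome II (ZK131 with 10 genes and F08G2 with 3), 20 on IV (B0035, F54E12, F55G1 and F17E9 with 4 each, H02I12 and F22B3 with 2 each), 17 on V (F07B7 with 6, F45F2 with 5, T10C6 with 4, C50F4 with 2) and 2 on X (K03A1). All but F08G2.3 and F45F2.2 fall into 25 neighbouring pairs transcribed away from each other, 13 of an H2A with an H2B gene and 12 of an H3 with an H4 gene. The library counts were made on the older release WS220, so no coordinates are given.

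Replication-dependent core histone genes supply the histones that package newly copied DNA, and in animal cells their transcripts are mostly made in S phase. Most of these mRNAs end in a stem-loop in place of a poly(A) tail. The stem-loop is bound by the stem-loop binding protein, encoded in *C. elegans* by cdl-1, and the Argonaute protein CSR-1 with its small RNAs takes part in the maturation of histone mRNAs in this animal. The adult gonad holds dividing germ cells at its distal end and meiotic cells further on, and mature sperm neither divide nor copy DNA. The libraries here were made from total RNA after depletion of ribosomal RNA, so transcripts without a poly(A) tail could enter them.

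The series compared male (spermatogenic) with oogenic germlines, and mes-3 mutants with controls; mes-3 encodes a subunit of the *C. elegans* complex that places the repressive mark H3K27me3. Distal gonad arms were cut from day-old adults at the bend where late pachytene cells lie, and mature sperm were released from cut males. Male germlines came from wild-type N2 (2 libraries), from homozygous him-8(e1489) of strain CB1489, a mutation that raises the number of males (4 libraries), and from mes-3(bn35) homozygotes of strain SS818 whose heterozygous mothers supplied mes-3 product (3 libraries). Sperm came from the same him-8 and mes-3 strains (3 libraries each). Oogenic germlines came from N2 hermaphrodites (3 libraries) and from DH245 fem-2(b245ts) females (3 libraries). The fem-2 females were grown at 15 °C and moved to 20 °C at the L4 stage for 24 h. Worms for the N2 libraries and for the him-8 and mes-3 male and sperm libraries were grown at 20 °C. The last pair of groups were germlines of offspring of strain SS1167, homozygous for both mes-3(bn35) and fem-2(b245ts), raised at 15 °C, from feminized mothers heterozygous for mes-3. Their fathers were either homozygous for mes-3, so that sperm chromosomes lacked the mark (M+P-, 2 libraries), or heterozygous (M+P+, 2 libraries), and all offspring carried the same mutations. Males have 1 X chromosome and hermaphrodites 2. Where 2 groups differ in a histone mRNA, fewer cells in S phase and less of it per cell cannot be told apart.

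Total gene counts were 1078195 to 18617543 per library. Values are CPM, the counts of a gene scaled to the total gene counts of its library, and 3 counts correspond to 0.161 to 2.78 CPM across the libraries; levels under that floor are not distinguished from none, and such limits cover counting error only. The libraries carry 7 tags in their file names, written here as A to G, whose meaning the labels do not give. The third library of each oogenic group and the second of N2 male carry tag A; the first of N2 male and the first pair of him-8 male, tag D; the other him-8 male libraries, tag E. Every mes-3 male and sperm library carries tag F, and the offspring tag G. Spermatogenesis markers summed to 3113 to 6279 CPM in every male and sperm library, to 0.843 to 1.85 CPM in N2 and fem-2 oogenic libraries and to 25.5 to 31.9 CPM in offspring. Oogenesis markers summed to 6313 to 7079 CPM in N2 and fem-2 oogenic, 4150 to 4938 in offspring and 140.4 to 614 CPM in male and sperm libraries. Summed muscle markers reached 2479 to 5721 CPM in the 6 sperm libraries, against 58.8 to 126.6 in mes-3 male, 226 to 3379 in him-8 male and 560 to 1662 in N2 male germlines; none of the 9 muscle genes was at 0 in a whole group. The mes-3 transcript itself was at 26.9 to 40.2 CPM in mes-3 and 12.98 to 29.8 CPM in him-8 male germlines, so its level did not separate the mutant. No pair of replicates among 24 matched within sampling noise.

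The 52 genes together took 1.204% to 2.996% of all gene counts. Most of this came from 16 genes, those of B0035, F54E12, F55G1, H02I12 and F22B3 on chromosome IV, which held 82.4% to 98.0% of the members' counts in every library. Per length, the mean level of a member in N2 oogenic germlines was 3726 RPKM (reads per kilobase, scaled to library size) in F54E12, 3240 in B0035, 4093 in H02I12, 2784 in F22B3 and 1662 in F55G1. In the same libraries it was 170 in F17E9, 160 in ZK131, 220.2 in F08G2, 126 in T10C6, 81.6 in F45F2, 76.8 in F07B7 and 19.03 in C50F4. The order among neighbours in this list is not firm, because the recovered length equals the bare coding length for 26 of 51 members and includes untranslated sequence for the others. F55G1, the lowest of the first 5, still had 1198 to 2211 RPKM in the 3 libraries, and F08G2, the highest of the rest, 59.8 to 306.

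**Figure D1:**
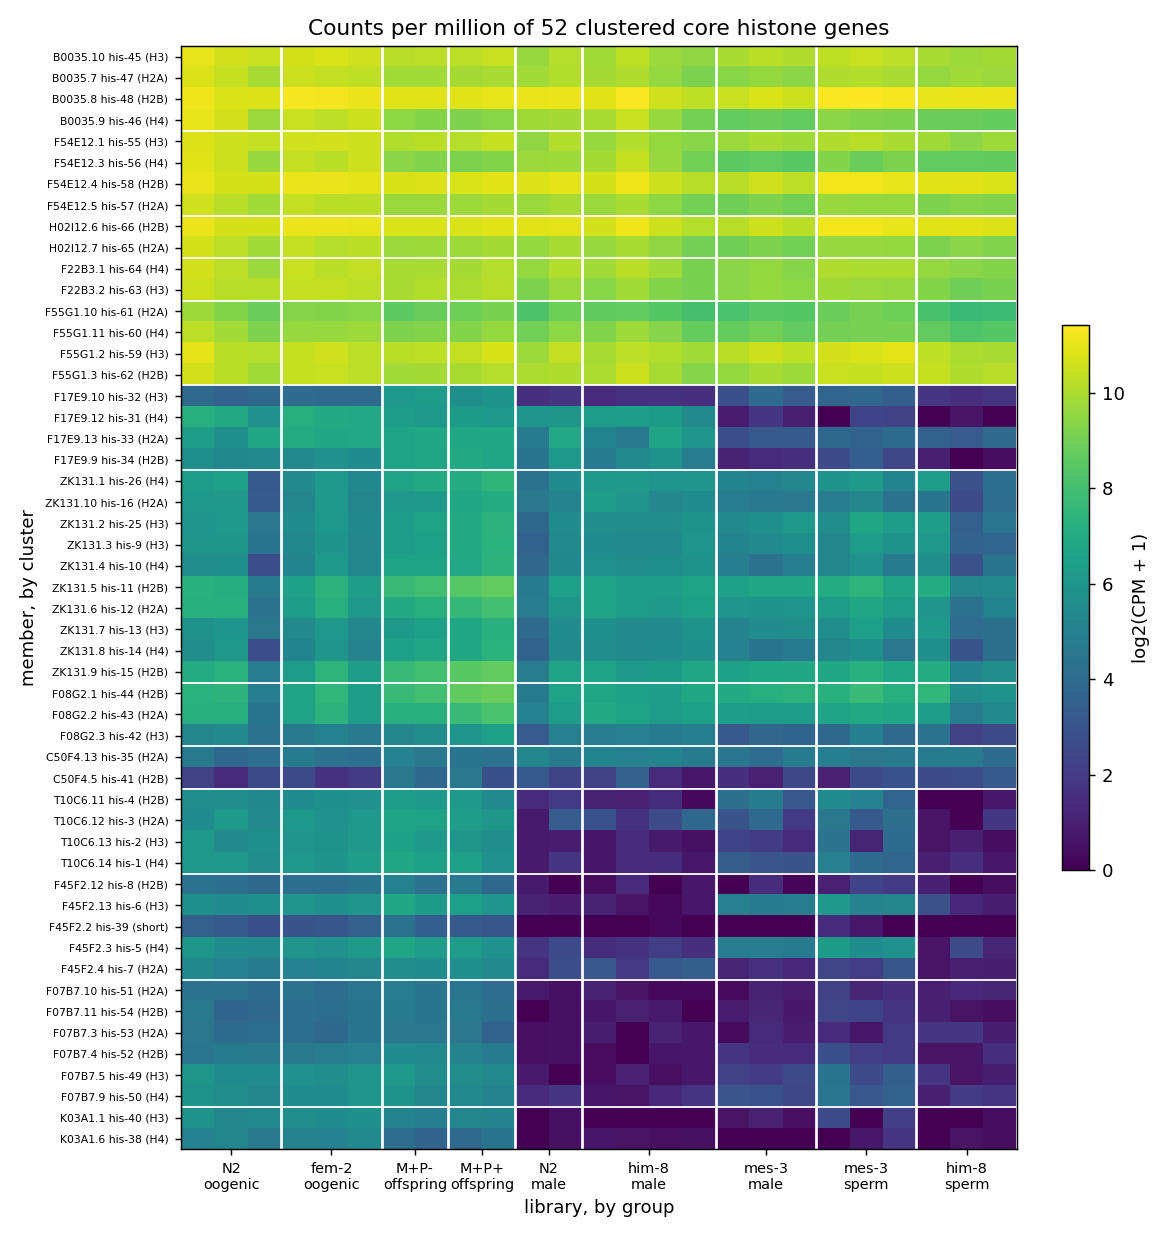
CPM of all 52 members (rows, grouped by cluster, with symbol and histone class) in 25 libraries (columns, by group), as log2(CPM + 1). The 16 genes of B0035, F54E12, H02I12, F22B3 and F55G1 were high in every library; the genes of T10C6, F45F2, F07B7 and K03A1 were low in all N2 male, him-8 male and him-8 sperm libraries.

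The most abundant members encode H2B. B0035.8 (his-48) had 1727.8 to 2211 CPM in N2 oogenic, 2172 to 2418 in fem-2 oogenic, and 2078 and 2184 CPM in N2 male germlines. It had 1268 to 2567 (him-8) and 1402 to 1760 CPM (mes-3) in the other males, and 2029 to 2127 (him-8) and 2429 to 2727 CPM (mes-3) in sperm. F54E12.4 (his-58) and H02I12.6 (his-66) ran in parallel with each other: the ratio of their counts stayed between 0.961 and 1.04 in all 25 libraries. The H4 gene F22B3.1 (his-64) ranged from 556 to 1578 CPM and the H3 gene F55G1.2 (his-59) from 847 to 1955 CPM over all libraries. The H2A genes F54E12.5 (his-57) and H02I12.7 (his-65) likewise kept a ratio of 0.927 to 1.07. Among 106 same-class pairs with at least 20 counts for both genes, 15 had ratios that spread by less than 1.5-fold. How the counting divided reads between near-identical copies is not given in the sources used here, and such copies may share reads, so the level of any 1 of them is uncertain while the cluster sums are less so. Annotated exons on the other strand overlap ZK131.10, F54E12.5, F45F2.12, F07B7.11 and T10C6.11, and C50F4.5 shares exon sequence with C50F4.6 on its own strand; whether strand was used in counting is unknown, which makes these members uncertain too.

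The clusters fell into sets that differed in where they were found, as the plot of cluster sums shows; the sets were drawn after their values were seen and their sums carry no test. The 5 abundant clusters were high in all groups, with sums that differed by up to 1.95-fold between libraries of 1 group: summed CPM was 17292 to 27757 (N2) and 22453 to 23683 (fem-2) in oogenic germlines. Male germlines had 15524 and 18594 (N2), 10931 to 21346 (him-8) and 12051 to 14692 CPM (mes-3), and sperm 18679.7 to 19662 (mes-3) and 14152 to 15308 CPM (him-8). Offspring had 16582 and 17032 in M+P- and 16847 and 19184 CPM in M+P+ germlines. T10C6, F07B7, F45F2 and K03A1, 17 genes, behaved otherwise. Their sum was 712, 613 and 541 CPM in N2 oogenic and 675, 629.5 and 789 in fem-2 oogenic germlines. It was 13.8 and 31.6 in N2 male, 24.5, 17.3, 26.4 and 32.7 in him-8 male, and 18.8, 19.8 and 16.2 CPM in him-8 sperm libraries. No oogenic library came near any of these 9. The mes-3 libraries lay between: 110.6, 120.1 and 86.5 CPM in male germlines and 327, 167 and 193 CPM in sperm. Offspring had 984 and 775 (M+P-) and 794 and 585 CPM (M+P+).

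**Figure D2:**
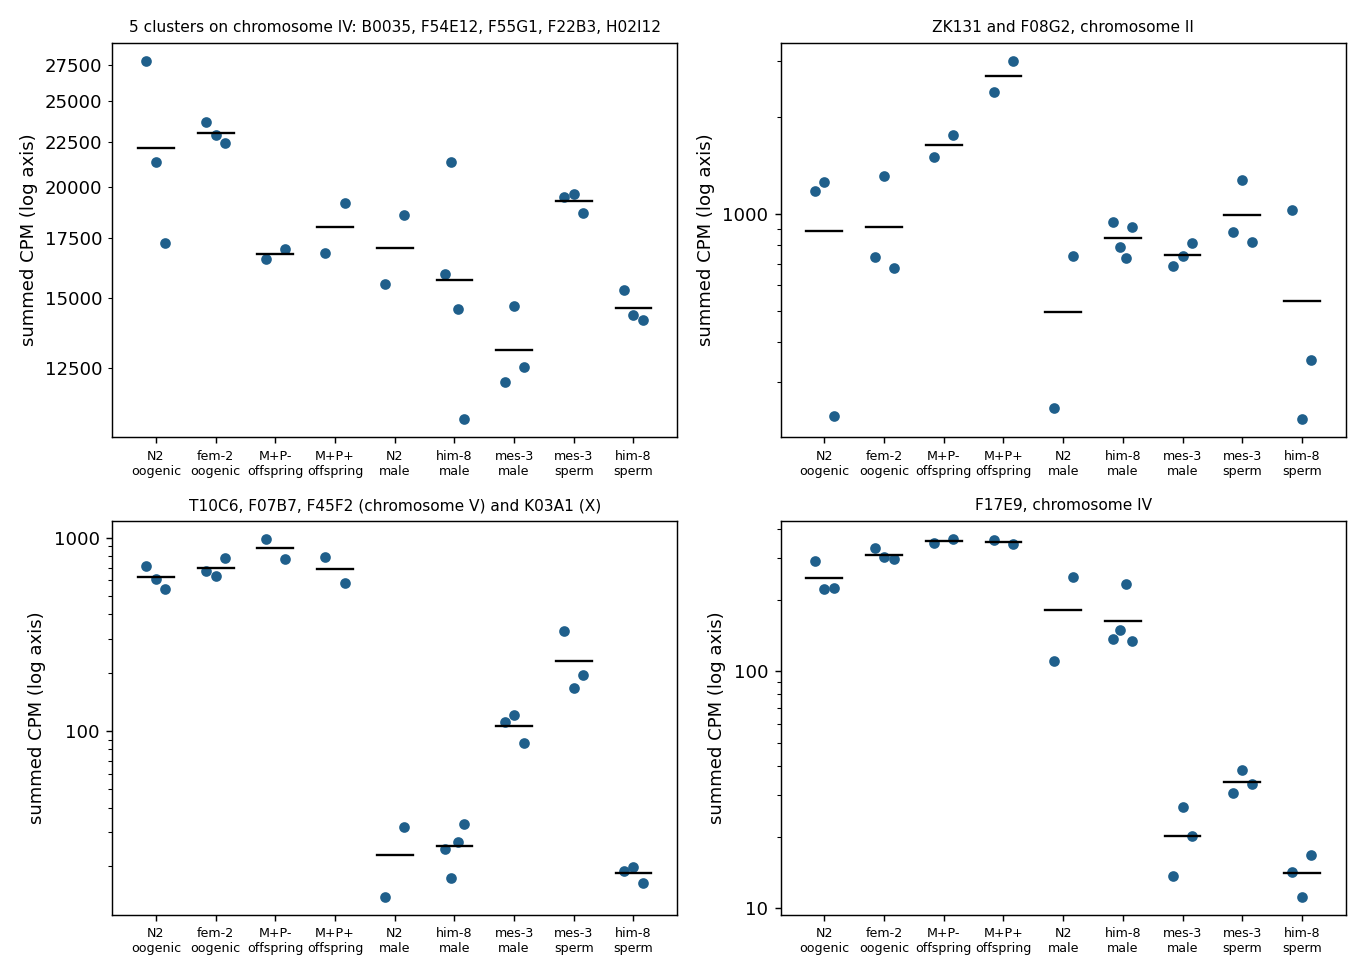
Summed CPM (log axes) of 4 cluster sets in each library (points) with the group mean (line), by group. T10C6, F07B7, F45F2 and K03A1 summed to 541 CPM or more in every oogenic library and to 32.7 CPM or less in every N2 male, him-8 male and him-8 sperm library; F17E9 was under 40 CPM in all mes-3 male and sperm libraries.

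Male and oogenic germlines were compared to ask which transcripts differ between the sexes. The members of T10C6, F07B7 and F45F2 on chromosome V and K03A1 on X were lower in male germlines, as was F17E9.10 on IV. The C50F4 genes, also on V, were not, and the direction of the other members depended on how the counts were scaled. In N2, 18 of the 52 members were lower and 5 higher at an adjusted p under 0.05 (edgeR's quasi-likelihood test with trimmed-mean scaling, Benjamini-Hochberg over all genes tested), where 22% of all genes tested were lower and 38.3% higher. In him-8 male against fem-2 oogenic germlines, 18 were lower and 7 higher, against 30.4% and 33.8% of all genes. Strain, growth temperature and tag differ together with sex in the him-8 and fem-2 comparison. The 18 lower members were the same in both comparisons, which share no library: all 17 genes of T10C6, F07B7, F45F2 and K03A1, and F17E9.10. The only member higher in both was C50F4.13. The median log2 fold change of the members was 0.13 in N2, beside 0.23 over all genes, and -0.17 in the mutant strains, beside 0.03. Under a correction for transcript length, 43 members were lower and 0 higher in N2 (median -2.49) and 47 and 0 in the mutant strains (median -2.24). Of all genes, 2333 were then lower and 3082 higher in N2, and 2586 and 3559 in the mutant strains. Under total counts 22 members were lower and 0 higher in N2, and 28 and 1 in the mutant strains. Of all genes, these were 4248 and 2310 in N2, and 4273 and 2557 in the mutant strains. The difference between the 2 strain pairs in the male effect was itself tested across 9916 genes and called for 0 of the 52 members (1 at an unadjusted p under 0.05), against 0.0101% of all genes.

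F45F2.13 (his-6, H3) shows the pattern. It had 50.1, 44.7 and 52.6 CPM in N2 oogenic and 61.6, 52.6 and 60.8 in fem-2 oogenic germlines. In males it had 1.18 and 0.820 CPM in N2, and 1.23, 0.541, 0.199 and 0.642 CPM in him-8. No N2 or him-8 male library reached a level near any oogenic one. The log2 fold change was -4.67 ± 0.42 (SE; adjusted p = 2.31e-05) in N2 and -6.06 ± 0.39 (adjusted p = 1.60e-06) in the mutant strains. Because N2 males were at or under 3 counts, the N2 level was at least 40.7-fold lower at that floor. T10C6.14 (his-1, H4) had 71.4, 69.1 and 46.9 CPM in N2 oogenic and 0.788 and 2.46 CPM in N2 male germlines, with log2 fold changes of -4.34 ± 0.49 (adjusted p = 1.00e-04) in N2 and -5.45 ± 0.37 (adjusted p = 2.41e-06) in the mutant strains. F45F2.3 (his-5, H4) kept a little more in males, 2.36 and 4.92 CPM in N2 and 1.84 to 3.38 CPM in him-8, against 44.7 to 70.3 CPM in the 6 oogenic libraries.

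The X-linked pair was at or under 3 counts in every N2 and him-8 male library. K03A1.1 (his-40, H3) had 57.5, 37.1 and 43.5 CPM in N2 oogenic and 48.3, 45.6 and 51.6 CPM in fem-2 oogenic germlines. It was at 0 in N2 male 1 and all 4 him-8 male libraries and at 0.410 CPM in N2 male 2, at least 38.2-fold lower in N2 and at least 51.3-fold lower in him-8 males at the floor of 3 counts. Its divergent partner K03A1.6 (his-38, H4) was at least 25.3-fold and at least 38.6-fold lower, from 23.6 to 43.4 CPM in oogenic germlines. F07B7.5 (his-49, H3) was at least 42.6-fold lower in N2 and at least 58.6-fold lower in him-8 males, and the short gene F45F2.2 (his-39) at least 6.77-fold and at least 8.62-fold. The smallest differences in this set belonged to the H2A genes T10C6.12 (his-3), with log2 fold changes of -2.54 ± 0.67 (adjusted p = 0.0111) and -2.66 ± 0.41 (adjusted p = 4.59e-04), and F45F2.4 (his-7), with -2.21 ± 0.52 (adjusted p = 0.00654) and -1.78 ± 0.32 (adjusted p = 0.00116). The latter had 1.58 to 9.84 CPM in the 6 N2 and him-8 male libraries and 24.6 to 38.95 CPM in oogenic ones, again without overlap.

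The other F07B7 genes were low in males as well. The H2B gene F07B7.4 (his-52) had 0 to 0.642 CPM in the 6 N2 and him-8 male libraries and 21.3 to 30.7 CPM in the 6 oogenic ones. The H2A gene F07B7.10 (his-51) had 0.199 to 1.23 and 14.7 to 21.4 CPM. Markers of several cell types moved with this comparison. The 5 mitotic germ cell genes summed to 299.8 and 387 (N2) and 272.5 to 401 CPM (him-8) in male germlines. They summed to 967 to 1026 CPM in the 6 oogenic libraries, with 3 of 5 lower and 1 higher in each comparison. Germline markers summed to 1293 and 1490 (N2) and 1184 to 1789 CPM (him-8) in male germlines. In oogenic germlines they had 6171 to 6817 (N2) and 5828 to 6089 CPM (fem-2). Of these 4 genes, 2 were lower in each comparison, and 0 (N2) and 1 (mutant strains) higher. Muscle genes were higher for 9 of 9 in N2 and 7 of 9 in the mutant strains. The part of these cell types in the lower members was not tested.

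K03A1.1 had no recovered length, so the length correction did not include it. All 18 lower calls of the him-8 and fem-2 comparison were made under every alternative that tested the gene, and 17 of the 18 in N2. The exception was F17E9.10 (his-32, H3), which had 1.97 and 2.46 CPM in N2 male and 10.96 to 13.9 CPM in N2 oogenic libraries (log2 fold change -1.60 ± 0.43, adjusted p = 0.0125) and whose adjusted p was 0.0512 without N2 male 1. Within tag A, the single tag that holds both sexes, the 17 genes summed to 31.6 CPM in N2 male 2, against 541 in N2 oogenic 3 and 789 in fem-2 oogenic 3; with 1 library a group this carries no test.

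**Figure D3:**
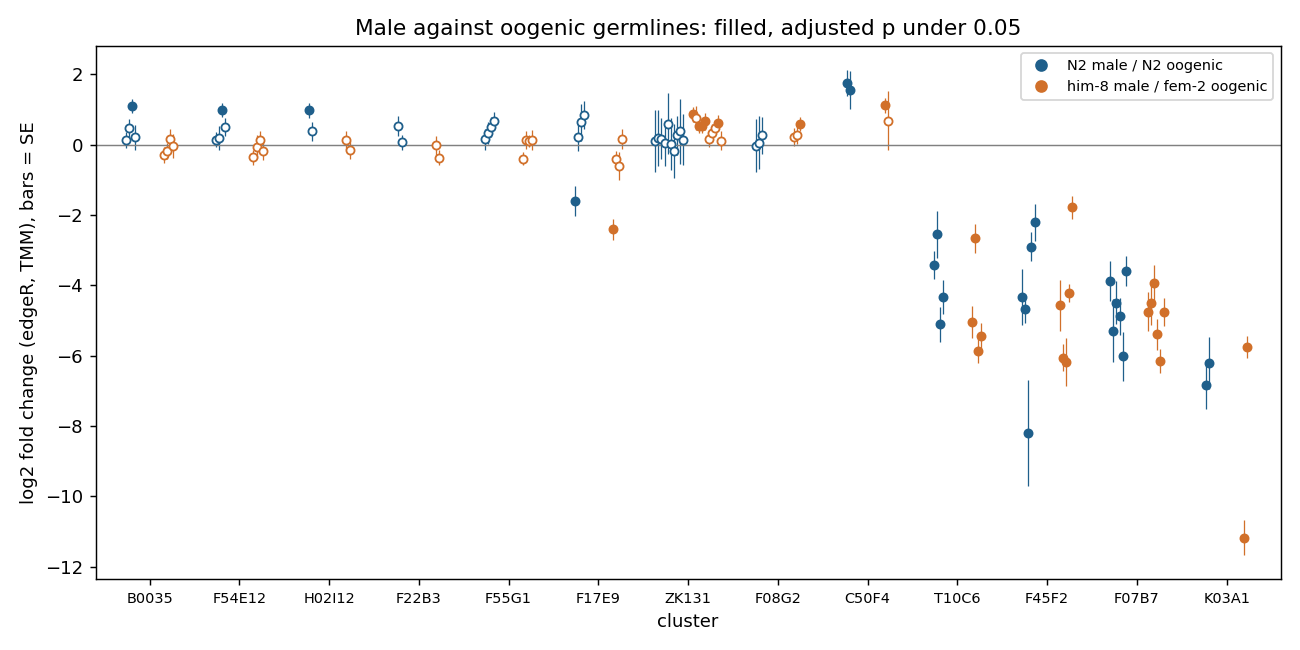
Log2 fold change (with SE) of each member in male against oogenic germlines, by cluster, for N2 and for him-8 against fem-2; filled points had an adjusted p under 0.05. All 17 genes of T10C6, F45F2, F07B7 and K03A1 were lower in both comparisons, with log2 fold changes of -11.17 to -1.78.

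The members called higher in males rested on the scaling. In N2 they were the H2B genes B0035.8 (1.08 ± 0.20, adjusted p = 0.00168), F54E12.4 (0.99 ± 0.20, adjusted p = 0.00270) and H02I12.6 (0.97 ± 0.21, adjusted p = 0.00388) and both genes of C50F4, as log2 fold changes. The plain CPM of the 3 H2B genes of the abundant clusters overlapped between the sexes: F54E12.4 had 1800.3 and 1960 CPM in N2 male and 2087, 1655 and 1645 CPM in N2 oogenic libraries. Scaled by total counts alone, the median of all genes moved from 0.23 to -0.70 in N2 and from 0.03 to -0.46 in the mutant strains, and 0 and 1 members were called higher in place of 5 and 7. With a correction for transcript length, 0 were higher in either, and the log2 values of B0035.8, F54E12.4, H02I12.6 and C50F4.13 turned negative. C50F4.13 (his-35, H2A), with 36.2 and 24.6 CPM in N2 male, 23.2, 13.5 and 16.3 in N2 oogenic, 24.8 to 34.6 in him-8 male and 17.2 to 24.4 CPM in fem-2 oogenic libraries, was the one called under total counts, in the mutant strains alone. Its neighbour C50F4.5 (his-41, H2B) had 7.88 and 4.10 CPM in N2 male and 1.69 to 4.995 CPM in N2 oogenic libraries, which overlap. The other 6 calls in him-8 males were H3 and H4 genes of ZK131 and F08G2, with log2 fold changes of 0.53 to 0.86; ZK131.1 (his-26, H4) had 60.1 to 71.1 CPM in him-8 male and 43.7, 69.9 and 39.1 CPM in fem-2 oogenic libraries, which overlap. Without fem-2 oogenic 2, 13 members were called higher, and without fem-2 oogenic 1 or 3, 2.

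The ZK131 and F08G2 genes, contiguous on chromosome II, differed more between libraries of a group than between the sexes. Their sum was 1176 and 1256 CPM in N2 oogenic 1 and 2 but 234.5 in N2 oogenic 3. It was 737, 1314 and 677 in fem-2 oogenic, 249.8 and 739.7 in N2 male, and 728 to 946 CPM in him-8 male libraries. In him-8 sperm it was 1028, 230.0 and 351 CPM. The highest library was 5.36-fold over the lowest in N2 oogenic germlines and 4.47-fold in him-8 sperm. The low libraries were low for every histone class but not by the same factor. In N2 oogenic 3, the H4 genes ZK131.4 and ZK131.8 had 5.64 CPM each, against 48.2 to 67.5 CPM in N2 oogenic 1 and 2, while the H3 gene ZK131.7 (his-13) had 21.9, against 54.7 and 62.4 CPM. ZK131.5 (his-11), H2B and the highest of that cluster, had 26.2 CPM against 149.3 and 137.4, and F08G2.1 (his-44), also H2B, 28.7 against 155.8 and 164. The abundant chromosome IV clusters in N2 oogenic 3 summed to 17292 CPM, the lowest of that group but within 1.61-fold of the highest.

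Male germlines and sperm of mes-3 mutants were compared with those of him-8 to ask what changes where the mark cannot be made anew. In mes-3 male germlines the changes ran both ways. Of 43 members tested, 7 were higher and 15 lower, against 11.9% and 16.1% of all genes tested, and the median log2 fold change was -0.49, beside -0.003 over all genes. The mes-3 male libraries all carry tag F and the him-8 male libraries tags D and E, so tag and genotype cannot be told apart in this comparison. Sperm of both genotypes carry tag F: there 5 of 40 members were higher and 0 lower, against 3.22% and 7.05% of all genes, with a median of 0.38 beside 0.06. At an unadjusted p under 0.05, 12 of 40 members and 1973 of 8424 genes differed in sperm, and DESeq2 called 4 members higher and 0 lower. Cell markers moved with the sperm comparison: spermatogenesis markers summed to 3632 to 4099.5 CPM in mes-3 and 5847 to 6279 CPM in him-8 sperm (5 of 6 lower), germline markers to 803 to 981 and 446 to 624.7 CPM (1 of 4 higher), and gonadal sheath markers to 76.9 to 135.8 and 19.8 to 36.6 CPM (1 of 2 tested higher). Their part in the members' changes was not tested. Members left out of a test, K03A1.1 and K03A1.6 among them, had too few counts to pass its filter.

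Of the higher members, 6 of 7 in male germlines and 4 of 5 in sperm came from the chromosome V clusters that were low in control males. The others were F17E9.10 in male germlines and F55G1.10 in sperm, both on chromosome IV. Members near the floor in him-8 passed the count filter mostly where mes-3 libraries were high. The share of higher calls from these clusters is therefore partly set by the filter. In male germlines 2 of 6 members of F07B7, 3 of 5 of F45F2 and 3 of 4 of T10C6 were tested, and in sperm 2, 2 and 3. F45F2.13 (his-6, H3) had 30.7, 24.0 and 27.1 CPM in mes-3 male germlines, against 0.199 to 1.23 CPM in him-8. In sperm it had 68.5, 33.9 and 36.2 CPM in mes-3, against 6.10, 1.52 and 0.973 CPM in him-8. The groups overlapped in neither tissue. The log2 fold changes were 5.21 ± 0.46 (adjusted p = 3.23e-04) in germlines and 3.75 ± 0.71 (adjusted p = 0.00557) in sperm. F45F2.3 (his-5, H4), its divergent partner, had 26.5, 27.9 and 25.4 CPM in mes-3 male germlines and 73.3, 46.1 and 53.8 CPM in mes-3 sperm, against 1.84 to 3.38 and 0.509 to 5.08 CPM in him-8, with log2 fold changes of 3.28 ± 0.30 (adjusted p = 4.02e-04) and 4.37 ± 0.68 (adjusted p = 0.00343). T10C6.11 (his-4, H2B) had 17.4, 24.0 and 7.61 CPM in mes-3 male germlines and 43.8, 32.7 and 12.1 CPM in mes-3 sperm. Its him-8 values were 0.214 to 1.79 CPM in germlines and 0, 0 and 0.648 CPM in sperm, so that the sperm level was at least 21.998-fold higher at the floor; the log2 fold change in germlines was 3.69 ± 0.63 (adjusted p = 0.00503). These 3 genes were called higher in both tissues under every alternative tried. T10C6.14 was also called in both, with log2 fold changes of 2.52 ± 0.52 (adjusted p = 0.00948) and 3.62 ± 0.94 (adjusted p = 0.0272). Neither call held under every alternative, and among single libraries left out, the sperm call was lost without mes-3 sperm 1, 2 or 3 or without him-8 sperm 3 (adjusted p from 0.0655 to 0.196). The fifth call in sperm, the H2A gene F55G1.10 (his-61), had 458, 539 and 470.5 CPM in mes-3 and 275, 212 and 223 CPM in him-8 sperm (0.77 ± 0.18, adjusted p = 0.0172); it was lost without mes-3 sperm 2 or 3 or him-8 sperm 2 or 3 (adjusted p from 0.0542 to 0.0869).

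Neighbours in the same clusters did not all follow. In mes-3 male germlines the H2A gene F45F2.4 (his-7), next to F45F2.13, was lower, with 1.25, 2.133 and 1.40 CPM against 2.70 to 9.84 CPM in him-8 (log2 fold change -2.35 ± 0.50, adjusted p = 0.0108); the call was lost without mes-3 male 3 (adjusted p = 0.0574). T10C6.12 (his-3, H2A) had a log2 value of -0.03 there, with overlapping libraries. K03A1.1 had 0.501, 1.07 and 0.400 CPM in male germlines of mes-3 and 5.27, 0 and 3.21 CPM in mes-3 sperm, and K03A1.6 was at 0 in all 3 mes-3 male libraries. By histone, the 7 higher members were 3 H3 genes, 3 H4 genes and 1 H2B gene, while the 15 lower were 7 H2A, 6 H4, 1 H2B and 1 H3 gene. Tested were 11 H2A, 10 H2B, 11 H3 and 11 H4 genes. Of F07B7 only the H3 and the H4 gene passed the count filter, so the class split of the higher members is partly set by that filter. F07B7.5 and F07B7.9 were the higher members of F07B7, at 2.93 to 4.70 and 4.40 to 7.01 CPM in mes-3 male germlines. Even at these levels, the 17 genes together reached 15.2% of their mean in fem-2 oogenic germlines in mes-3 males and 32.9% in mes-3 sperm.

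**Figure D4:**
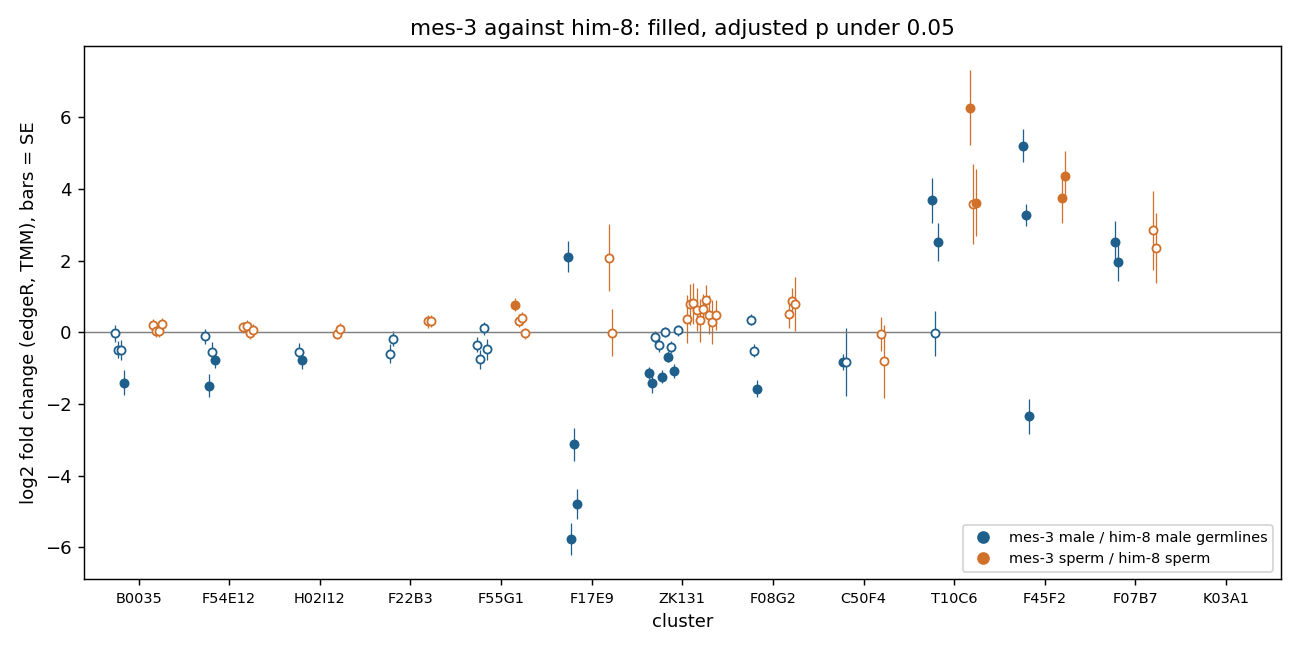
Log2 fold change (with SE) of each member in mes-3 against him-8, by cluster, in male germlines and in sperm; filled points had an adjusted p under 0.05. F45F2.13, F45F2.3, T10C6.11 and T10C6.14 were higher in both, F17E9.12, F17E9.9 and F17E9.13 lower in male germlines; members that did not pass the count filter are not drawn.

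The lower members were led by F17E9. F17E9.12 (his-31, H4) had 42.6 to 81.6 CPM in him-8 male germlines and 0.876, 2.53 and 1.00 CPM in mes-3 male germlines (log2 fold change -5.78 ± 0.45, adjusted p = 1.60e-04). F17E9.9 (his-34, H2B) had 24.8 to 55.5 CPM against 1.13 to 1.90 CPM (-4.80 ± 0.41, adjusted p = 2.90e-04), and F17E9.13 (his-33, H2A) 23.2 to 101.6 CPM against 5.76 to 8.41 CPM (-3.13 ± 0.46, adjusted p = 0.00295). These genes were also low in him-8 sperm, where tissue and tag both differ from him-8 male germlines. F17E9.12 was at 0, 0.508 and 0 CPM there, at least 51.0-fold lower than in him-8 male germlines at the floor of 3 counts. F17E9.9 had 1.02, 0 and 0.324 CPM, at least 27.98-fold lower. Summed, these 3 genes had 7.76, 11.9998 and 11.3 CPM in mes-3 male, 18.5 to 24.98 in mes-3 sperm, and 9.14 to 14.6 CPM in him-8 sperm libraries, the 9 libraries of tag F, and 109 to 315 CPM in the other 16. Tag and genotype cannot be told apart in the mes-3 male germlines, nor tag and tissue in him-8 sperm. The fourth gene of the cluster, F17E9.10 (his-32, H3), had 4 to 11 counts in the him-8 male libraries. A fall as large as those of its neighbours could therefore not be seen. In him-8 sperm against male germlines F17E9.10 did not pass the count filter. It rose in mes-3 male germlines to 5.88, 14.7 and 8.91 CPM from 1.53 to 2.19 CPM in him-8 (2.11 ± 0.44, adjusted p = 0.00983).

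The remaining lower members in mes-3 males were 5 genes of ZK131 (ZK131.1, ZK131.4, ZK131.6, ZK131.8 and ZK131.10), F08G2.3, B0035.9, F54E12.3, F54E12.5, H02I12.7 and C50F4.13, with log2 fold changes of -1.57 to -0.68. The H4 gene F54E12.3 (his-56) had 366, 410.9 and 362 CPM in mes-3 and 509 to 1340.3 CPM in him-8 male germlines (-1.49 ± 0.33, adjusted p = 0.0121). The H4 gene ZK131.4 (his-10) had 28.8, 18.9 and 28.1 CPM against 48.1 to 55.6 CPM (-1.24 ± 0.19, adjusted p = 0.00306). These calls depended on settings. Under the length correction 14 members were higher and 3 lower, beside 783 and 938 of all genes. The 3 lower under every alternative were F17E9.12, F17E9.9 and F17E9.13. Summed muscle markers were 226 to 3379 CPM in him-8 and 58.8 to 126.6 CPM in mes-3 males, and 7 of 9 muscle genes were called lower in mes-3; their part in the lower members was not tested. Against the him-8 controls of tag D alone, 23 members were lower and 5 higher, and against those of tag E, 12 and 6.

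The effect of mes-3 differed between sperm and male germlines for 7 of 44 members in a test of the difference itself, against 2.76% of 10129 genes. It was more positive in sperm for F17E9.12, F17E9.9, F17E9.13, F45F2.4, F54E12.3, B0035.9 and F55G1.10, with log2 differences from 1.107 upward. F17E9.12, F17E9.9 and F45F2.4 had at most 3 counts in each him-8 sperm library, so the sizes fitted for them have no meaning beyond that floor, and F17E9.12 and F17E9.9 were high in 1 of the 4 groups compared, him-8 male germlines.

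Sperm were compared with male germlines within each genotype. In him-8, 0 of 36 members were higher and 5 lower (16.2% and 14.4% of all genes): F17E9.12, F17E9.9, F17E9.13, F45F2.4 and ZK131.10. At an unadjusted p under 0.05, 7 of 36 members and 3864 of 8626 genes differed, and DESeq2 called 0 members higher and 6 lower. Under the length correction the split turned, to 10 higher and 2 lower, and the median log2 fold change went from -0.17 to 0.29. Of all genes, 1627 were then higher and 1145 lower. F17E9.12 and F17E9.9 were called lower under every alternative. Without him-8 sperm 1, 16 members were lower, and without him-8 male 2, 9 were higher and 5 lower. In mes-3, where both groups carry tag F, 21 of 46 members were higher in sperm and 0 lower, against 19% and 10.4% of all genes. At an unadjusted p under 0.05, 33 of 46 members and 4022 of 10018 genes differed, and DESeq2 called 26 members higher and 0 lower. All 16 genes of the 5 abundant clusters were among the 21, with log2 fold changes of 0.42 to 0.99. H02I12.6 had 1168, 1492 and 1209 CPM in mes-3 male germlines and 2296, 2284 and 2044 CPM in mes-3 sperm, without overlap (0.99 ± 0.12, adjusted p = 1.44e-04). Under every alternative 11 of the 21 stayed called, 5 of them B0035.8, F54E12.4, H02I12.6, F55G1.3 and F55G1.2. Muscle markers moved with this comparison, 9 of 9 higher in sperm with sums of 2793 to 5132 CPM against 58.8 to 126.6 CPM; their part in it was not tested.

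Offspring were compared to ask whether the fathers' state left a trace in the transcripts of germlines of the same genotype. Of 52 members, 0 were higher and 0 lower, as for all 11962 genes (0% and 0%). At an unadjusted p under 0.05, 14 members and 1244 of all genes differed, and DESeq2 called 1 member lower. Of the 14, 1 was F55G1.10 and 13 were the whole of ZK131 and F08G2. F08G2.1 had 207 and 255 CPM in M+P- and 392 and 456 CPM in M+P+ germlines (log2 fold change -0.91 ± 0.16, adjusted p = 0.169), and ZK131.9 (his-15, H2B) 212 and 248 against 359.8 and 410.5 CPM (-0.78 ± 0.15, adjusted p = 0.215). Over the 13 genes the log2 fold change ran from -0.91 to -0.49 with a median of -0.78, and the adjusted p from 0.169 to 0.42. The other 39 members had a median of 0.06, and all genes -0.003. Summed, the 13 genes had 1510.2 and 1764.5 CPM in M+P- and 2407 and 2991 CPM in M+P+ libraries, so these values, like the genes of 1 contiguous cluster, are not independent of each other. The same 13 genes spread up to 5.36-fold between replicates in other groups. The T10C6, F07B7, F45F2 and K03A1 genes had a median of 0.35, with 0 of 17 at an unadjusted p under 0.05. Without M+P- replicate 2 or without M+P+ replicate 1, 11 members were called lower, and without M+P- replicate 1 or M+P+ replicate 2, 1.

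The offspring germlines, oogenic and also from day-old adults, held some members at levels not seen in N2 and fem-2 oogenic germlines. F17E9.10 had 67.01 and 75.3 CPM in M+P- and 51.1 and 59.4 CPM in M+P+ germlines, against 10.96 to 14.98 CPM in the 6 N2 and fem-2 oogenic libraries. F17E9.9 had 97.2 to 125.5 CPM, against 39.6 to 54.05 CPM. K03A1.6 went the other way, at 11.6 to 20.6 CPM against 23.6 to 43.4 CPM. The offspring carry tag G alone, were raised at 15 °C and were homozygous for mes-3(bn35) as well as fem-2(b245ts). No comparison of them with the other groups was tested.

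No member was called between strains of 1 sex, which does not show equal levels. Between him-8 and N2 male germlines 0 of 36 members were called either way, and 0% and 0% of all genes; 4 members and 231 genes had an unadjusted p under 0.05, and DESeq2 called 0 members. Between fem-2 and N2 oogenic germlines 0 of 52 were called, against 0.0508% of all genes higher and 0.114% lower; 0 members and 345 genes had an unadjusted p under 0.05, and DESeq2 called 0 members. The members' median log2 fold changes were 0.01 and 0.20. In him-8 against N2 males 18 members were above 0 and 18 below, with medians of 0.76 in ZK131 and 0.64 in F08G2. In fem-2 against N2 oogenic germlines 44 were above 0 and 8 below.

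The mix of the 4 histones also varied, as the plot of class shares shows. H2B made up 27.7% to 33.8% of the members' RPKM in N2 and fem-2 oogenic germlines. In male germlines its share was 35.66% to 41.3% (N2 and him-8) and 38.1% to 40.2% (mes-3), and in sperm 42.6% to 44.3% (mes-3) and 46.99% to 48.6% (him-8). No N2 or fem-2 oogenic library overlapped a male or sperm one, while the 4 offspring libraries, at 36.1% to 37.6%, lay within the male range. H4 made up 23.6% to 32.1% in N2 and fem-2 oogenic germlines, 24.2% to 29.5% in N2 and him-8 male germlines and 16.6% to 18.1% in him-8 sperm. These shares weight each member by its recovered length, so they also depend on those lengths. Summed over all members, CPM in N2 males were 0.744 times those in N2 oogenic germlines, but 1.40 times after trimmed-mean scaling, with overlapping libraries. In mes-3 against him-8 the ratio was 0.834 in male germlines (0.706 after scaling) and 1.35 in sperm (1.114).

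**Figure D5:**
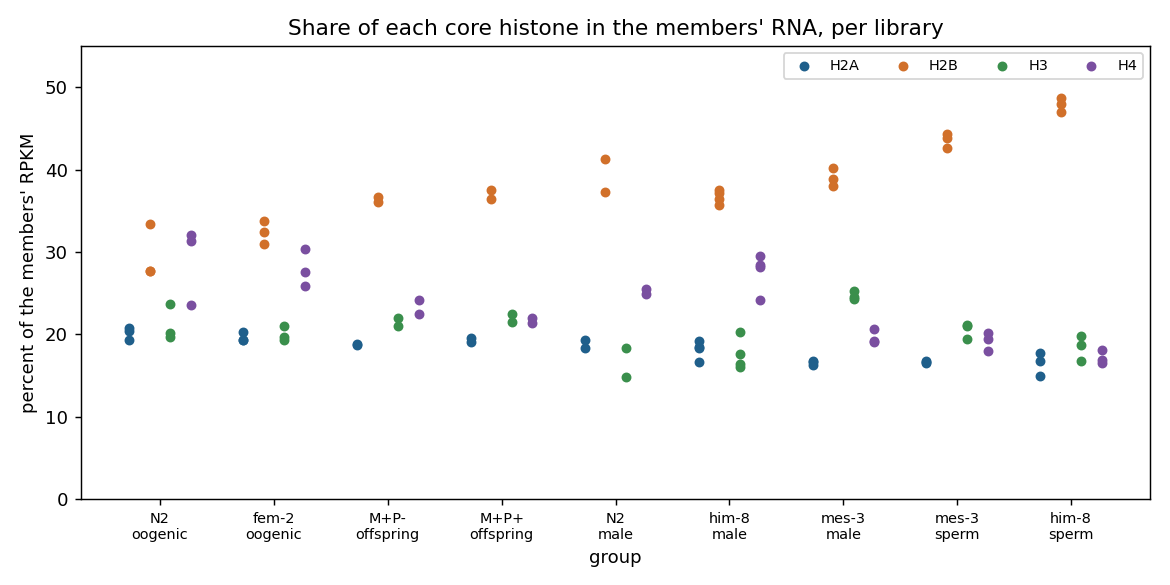
Share of H2A, H2B, H3 and H4 genes in the members' summed RPKM (vertical axis, percent), 1 point per library and class, by group. H2B ran from 27.7% to 33.8% in N2 and fem-2 oogenic germlines and from 36.1% to 37.6% in offspring, and reached 48.6% in him-8 sperm.

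Other genes of histone supply and DNA replication were read from 5 lists chosen by function. Of 17 DNA replication genes tested, 14 were lower in N2 male and 17 in him-8 male germlines and 0 higher, with medians of -1.93 and -2.07 beside 0.23 and 0.03 over all genes. Among them mcm-3, a subunit of the replicative helicase, had 81.8 CPM in N2 male and 596 CPM in N2 oogenic germlines (means, log2 fold change -1.95 ± 0.17, adjusted p = 1.81e-05), and rnr-1, a subunit of ribonucleotide reductase, 84.5 and 749 CPM (-2.23 ± 0.18, adjusted p = 1.08e-05). In mes-3, 2 of 17 were higher in male germlines, against 11.9% of all genes, and 4 of 16 in sperm, against 3.22%. Among those of sperm was mcm-7 (1.15 ± 0.27, adjusted p = 0.0148). Lower were 0 in either, against 16.1% and 7.05% of all genes. In sperm against male germlines 0 were higher and 4 of 16 lower in him-8, against 16.2% and 14.4% of all genes. In mes-3, 0 were higher and 6 of 17 lower there, against 19% and 10.4%. In mes-3 sperm, where the 16 abundant members were higher than in male germlines, mcm-3 was lower (-0.72 ± 0.18, adjusted p = 0.0113).

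Of 9 genes of histone mRNA maturation and the CSR-1 pathway, 1 was higher and 1 lower in N2 males, and 0 and 4 in him-8 males. Of all genes, 38.3% were higher and 22% lower in N2, and 33.8% and 30.4% in him-8 against fem-2. The stem-loop binding protein gene cdl-1 was lower in both, at means of 81.2 against 301 CPM in N2 (-0.97 ± 0.16, adjusted p = 0.00109) and 88.8 against 271 CPM in the mutant strains (-1.12 ± 0.15, adjusted p = 2.28e-04). csr-1 was the higher one, by 0.58 ± 0.15 (adjusted p = 0.0117) in N2, although its plain CPM were 759 in males and 961 in oogenic germlines. In mes-3, 2 of the 9 were higher in male germlines (11.9% of all genes) and 0 called in sperm (3.22% higher and 7.05% lower). In mes-3 sperm against mes-3 male germlines 0 were higher and 3 lower, against 19% and 10.4% of all genes. Of 13 histone chaperone genes, 5 were lower and 1 higher in N2 males, against 22% and 38.3% of all genes. In him-8 males 6 were lower and 0 higher, against 30.4% and 33.8%. The lower ones were led by nasp-2 (-1.97 ± 0.18, adjusted p = 2.95e-05 in N2), a homologue of the H3-H4 chaperone NASP. In mes-3, 1 chaperone gene was higher and 1 lower in male germlines (11.9% and 16.1% of all genes) and 0 called in sperm. In sperm against male germlines 1 was higher and 4 lower in him-8 (16.2% and 14.4% of all genes). In mes-3 these were 0 and 3 (19% and 10.4%).

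Of 13 core histone genes outside the member list that were tested, 8 were lower and 1 higher in N2 males, against 22% and 38.3% of all genes. In him-8 males 9 were lower and 1 higher, against 30.4% and 33.8%. The higher one was his-37 (C50F4.7), which lies on cosmid C50F4 like C50F4.13. Its log2 fold changes were 2.11 ± 0.37 (adjusted p = 0.00143) in N2 and 1.92 ± 0.49 (adjusted p = 0.00813) in the mutant strains. his-17 and his-27, of a further cluster on chromosome V, had means of 0.607 and 0.402 CPM in N2 male and 55.1 and 43.8 CPM in N2 oogenic germlines. his-18 of the same cluster was higher in mes-3 male germlines (1.99 ± 0.48, adjusted p = 0.0175) and mes-3 sperm (3.89 ± 0.80, adjusted p = 0.00888). his-29 and his-30, on chromosome IV, were lower in mes-3 male germlines (-4.35 ± 0.27, adjusted p = 4.45e-05, and -2.88 ± 0.50, adjusted p = 0.00535) and in him-8 sperm against him-8 male germlines, like F17E9. In all, 1 of 7 was higher and 3 lower in mes-3 male germlines and 1 of 6 higher and 1 lower in mes-3 sperm. In sperm against male germlines 0 of 5 were higher and 3 lower in him-8, and 1 of 10 higher and 0 lower in mes-3. Of all genes, 11.9% and 16.1%, 3.22% and 7.05%, 16.2% and 14.4%, and 19% and 10.4% were higher and lower in these 4 comparisons. Of 7 replacement variants tested in the male and oogenic comparisons, 2 were higher and 3 lower in N2 and 1 and 4 in the mutant strains. For these and the variant counts below, the shares over all genes are those given above for the same comparisons. The H3 variant gene his-70 had a mean of 159 CPM in N2 male and 0 in N2 oogenic germlines, and the H2A.Z gene htz-1 145 and 445 CPM (-0.70 ± 0.17, adjusted p = 0.00697). In mes-3 male germlines 0 variants were higher and 3 of 7 lower, in mes-3 sperm 0 of 7 were called, in him-8 sperm against male germlines 1 of 8 was higher and 4 lower, and in mes-3 sperm against male germlines 0 of 6 were called. None of the 5 lists had a gene called between M+P- and M+P+ offspring or between strains of 1 sex.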

How the data were processed

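Total RNA was depleted of ribosomal RNA and sequenced as 50-base single reads. The authors aligned the reads with TopHat2 to the WS220 transcriptome and deposited HTSeq counts per gene for each library; versions, strand setting and the treatment of reads matching several genes are not given in the sources used here. The RPKM values the authors deposited are group means over the longest exonic transcript. They served only to recover transcript lengths (18041, each within 0.01 bases of a whole number). The authors' log2 fold changes and adjusted p-values were not used. Lines that name no gene were left out: reads in no feature were 3.55% to 18.8% and ambiguous reads 1.59% to 3.11% of a library.

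Counts were tested per comparison, on its own libraries, with edgeR 4.0.16 (quasi-likelihood, trimmed-mean factors, its expression filter) in R 4.3.3, with Benjamini-Hochberg adjustment over all genes tested and a threshold of 0.05. Scripts were tested on simulated data. Alternatives were other scaling, filters, DESeq2 1.42.0, all 25 libraries in 1 fit, the replicate number as a block, a length correction, single tags as controls, and each library left out; the 2 tests of a difference between effects and the tag A values were added after seeing the data. Depth was 1078195 to 18617543 counts. The p-values measure the spread between these libraries, described in the study's methods as biological replicates.

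The members and lists were chosen with earlier results of these data known. Members were named as the highest in each cluster, both of C50F4, and up to 3 per direction and comparison with the largest called change and at least 5 CPM; list genes as up to 3 per direction and comparison with the smallest adjusted p, of which a selection is printed. Other named members were chosen after their values were seen. Of 108 list genes, 106 were matched by symbol.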

Additional observations from a re-analysis of the deposited data

Results flagged for a closer look

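In him-8 male germlines, replicate 3 stood apart from the other 3 libraries in the sum of the F17E9 genes (233 CPM), in the sum of F17E9.12, F17E9.13 and F17E9.9 (231 CPM), and in F45F2.2, where it was the only library with any count (0.199 CPM). Chance sets about 1 in 20 such groups apart.

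The effect of mes-3 in sperm minus that in male germlines, on the log2 scale and by edgeR's quasi-likelihood test over all genes, was 9.41 for F17E9.12 (adjusted p = 0.00117), 8.34 for F17E9.9 (adjusted p = 5.80e-04), 4.58 for F45F2.4 (adjusted p = 0.0400), 3.103 for F17E9.13 (adjusted p = 0.0148), 1.66 for F54E12.3 (adjusted p = 0.0362), 1.63 for B0035.9 (adjusted p = 0.0407) and 1.107 for F55G1.10 (adjusted p = 0.0476). In him-8 sperm F17E9.12, F17E9.9 and F45F2.4 had at most 3 counts per library, so the fitted sizes of these 3 differences depend on the prior count and are no bound. The mes-3 and him-8 sperm and the mes-3 male libraries carry tag F and the him-8 male libraries tags D and E, so tag and genotype cannot be told apart in the male part of these differences.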

How the results depend on the processing

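Of 44 named calls, 28 were made under every alternative that tested the gene and 16 were lost or turned under at least 1. Where no cause is given, the cause was not tested. Under total counts, members called higher were 0 in N2 male against oogenic germlines and 1 in him-8 male against fem-2 oogenic germlines (28 lower). They were 10 in mes-3 against him-8 sperm and 13 in mes-3 sperm against male germlines, beside 460 and 1645 of all genes. In him-8 sperm against male germlines 9 members and 1957 of all genes were lower. F55G1.2 turned to -0.40 in him-8 male against fem-2 oogenic germlines. Under the length correction, higher and lower counts were 0 and 43 in N2 and 0 and 47 in him-8 against fem-2. They were 14 and 3 in mes-3 males and 10 and 2 in him-8 sperm against male germlines. This correction gave 8 higher members in mes-3 against him-8 sperm and 12 in mes-3 sperm against male germlines, beside 229 and 1843 of all genes. It turned log2 values in N2 for B0035.8 (-0.69), C50F4.13 (-0.067), F17E9.13 (-2.002), F22B3.1 (-1.99), F54E12.4 (-0.81) and H02I12.6 (-1.83), in him-8 against fem-2 for B0035.8 (-1.23), C50F4.13 (-0.17), F08G2.1 (-2.13), F54E12.4 (-1.28), H02I12.6 (-2.26), ZK131.1 (-2.03), ZK131.4 (-2.21) and ZK131.5 (-1.01), and in mes-3 males for H02I12.6 (0.51). With no count filter, 2 were higher in him-8 against fem-2, 10 lower in him-8 sperm and 2 higher in fem-2 against N2 oogenic germlines. With all 25 libraries in the fit, 1 was higher in him-8 against fem-2, 14 in mes-3 against him-8 sperm, and 5 higher and 9 lower in him-8 sperm against male germlines. Controls of tag D gave 23 lower in mes-3 males, those of tag E 6 higher in him-8 sperm. DESeq2 called 1 lower in M+P- offspring. After trimmed-mean scaling, the ratio of summed members was 1.40 in N2, 0.958 in him-8 against fem-2, 1.114 in mes-3 against him-8 sperm and 1.70 in mes-3 sperm against male germlines.

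Leaving out each library in turn, members called higher ranged from 2 to 13 in him-8 against fem-2, 0 to 9 in him-8 sperm against male germlines and 3 to 14 in mes-3 against him-8 sperm (14 without him-8 sperm 1). Members called lower ranged from 2 to 16 in him-8 sperm against male germlines, 8 to 18 in mes-3 males (8 without mes-3 male 3) and 1 to 11 in M+P- offspring. ZK131.5 in him-8 sperm against male germlines ranged from -0.9002 to 0.29.

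Libraries with the same number share only that number: over 24 pairs, their deviations correlated at -0.582 to 0.210. With the replicate block, 3 members were higher in him-8 against fem-2, 3 in mes-3 males, 3 in mes-3 against him-8 sperm and 12 lower in M+P- offspring, and ZK131.5 in N2 turned to -0.65. T10C6.14 was then not called in mes-3 males (adjusted p = 0.0662) or mes-3 sperm (adjusted p = 0.0806), by edgeR. A member whose libraries are all at or under 3 counts, 11 in N2 male and 10 in him-8 sperm, was not detectable beyond that floor.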

Other observations

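Over the 9 group means, the genes whose levels were most like the summed members, by Spearman's rho among 8485 genes, were T03F6.3 (0.983), adh-5 (0.967), M01H9.3 (0.95), icln-1 (0.933) and CC8.2 (0.933). The points are means of libraries that differ in depth and tag, and the values are a description.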
